A study of Homo sapiens with 2 samples.

Results

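The low unassigned intervals of an sGCβ1 chromatin immunoprecipitation with sequencing (ChIP-seq) experiment were described: sites where the deposited list gave no gene, no promoter and no CpG island, and a height under 30. Height is the authors' maximum density of sequenced fragments within an interval, in whole numbers. Of 4169 intervals in the list, 1136 had no assigned gene and all of these also lacked a promoter. Of those, 1062 had no CpG island either, and 957 of the 1062 were lower than 30. These 957 members made up 23% of the list. The members were thus chosen by height and by the deposited counts of genes, promoters and CpG islands, and those values are given as a description only.

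The cells were U-87 MG, an established human glioma line, made by the authors to overexpress sGCβ1, and the labels list no treatment. Both samples of the study came from these overexpressing cells. In the ChIP sample chromatin was recovered with an anti-sGCβ1 antibody (Sigma G4405), and the input sample was made with no antibody. Every value came from the 1 ChIP library, since no file of the input library was used here, and cells without the overexpressed protein were not part of the study. With 1 library there was no replicate error and no test was made. No source used here states how many reads the library held, so the sequencing depth is unknown. Ranges after percentages are exact Clopper-Pearson 95% intervals and ranges after densities exact Poisson ones at 95%; neither includes anything beyond counting error.

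Nitric oxide acts in cells mainly through soluble guanylate cyclase (sGC), an enzyme that makes the messenger cyclic GMP once the gas binds the haem held by the β1 subunit. The enzyme is known from the cytosol, and the subunit is not a classical transcription factor. Sites far from genes in a glioma line often include enhancers, the regulatory elements to which transcription factors bind away from promoters. AP-1, a dimer of FOS and JUN family proteins, is among the factors most often found at such elements, and it binds the word TGANTCA, in which N is any base.

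The AP-1 sequences that follow were picked for holding the word, so they illustrate it and do not show how common it was. The first lines give 101 bp centred on the summit of the 5 tallest members with the AP-1 word in that stretch, with the word in capitals. They are on the + strand of hg19 and each is named by its nearest protein-coding gene.
EPS15, chr1:52009742-52009842: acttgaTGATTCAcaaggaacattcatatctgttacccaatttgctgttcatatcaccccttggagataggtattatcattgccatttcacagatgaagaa
TSPAN2, chr1:115727758-115727858: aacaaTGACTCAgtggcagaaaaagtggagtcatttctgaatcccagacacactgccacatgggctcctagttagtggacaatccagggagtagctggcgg
LPIN3, chr20:39958350-39958450: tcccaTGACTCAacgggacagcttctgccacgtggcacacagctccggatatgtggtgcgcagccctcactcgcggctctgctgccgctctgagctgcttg
MYEOV, chr11:69089326-69089426: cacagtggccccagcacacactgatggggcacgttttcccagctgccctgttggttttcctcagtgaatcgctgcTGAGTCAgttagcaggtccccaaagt
C20orf85, chr20:56687182-56687282: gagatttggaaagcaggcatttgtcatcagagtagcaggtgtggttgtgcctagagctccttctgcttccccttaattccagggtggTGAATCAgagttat
The next lines give the 3 tallest members with 2 or more AP-1 words in the stretch. The words stood apart from each other and did not overlap.
BCAS1, chr20:52509950-52510050: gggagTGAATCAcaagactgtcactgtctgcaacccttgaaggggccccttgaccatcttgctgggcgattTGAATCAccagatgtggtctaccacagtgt
TMEM233, chr12:120016110-120016210: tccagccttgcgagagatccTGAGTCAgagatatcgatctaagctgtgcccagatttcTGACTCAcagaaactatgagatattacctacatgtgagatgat
SEMA6D, chr15:47981134-47981234: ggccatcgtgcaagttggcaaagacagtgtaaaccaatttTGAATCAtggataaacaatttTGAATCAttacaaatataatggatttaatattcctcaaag

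For contrast, 3 tall members with no AP-1 word are shown that held a B box, the internal promoter element of tRNA genes, in capitals on the + strand as the reverse complement of the word.
PRSS16, chr6:27242926-27243026: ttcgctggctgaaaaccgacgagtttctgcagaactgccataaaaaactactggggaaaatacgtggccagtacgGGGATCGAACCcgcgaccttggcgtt
NFIB, chr9:14433902-14434002: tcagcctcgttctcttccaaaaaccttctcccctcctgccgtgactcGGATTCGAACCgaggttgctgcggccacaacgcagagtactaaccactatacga
OR6S1, chr14:21121198-21121298: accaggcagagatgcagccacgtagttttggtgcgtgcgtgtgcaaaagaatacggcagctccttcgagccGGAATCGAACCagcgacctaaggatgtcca

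The members were low by the rule, so their signal values are a description. Their heights ran from 8 to 29 with a median of 14 and quartiles of 12 and 16, and the commonest heights were 12, in 143 members, and 13, in 142. The interval length had a median of 1220 bp and ran from 564 to 4356 bp. Mean fragment density over the interval, the authors' second signal, had a median of 7 and reached 12.3. The MACS score, which is minus 10 times the log10 of the peak caller's p-value, had a median of 92.3 and ran from 70 to 298. The 1215 gene-assigned intervals that were as low and lacked a promoter or CpG island had a median height of 13 and a median score of 90.8. The 105 unassigned intervals with a height of 30 or more had a median height of 57 and a median score of 575.

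**Figure D1:**
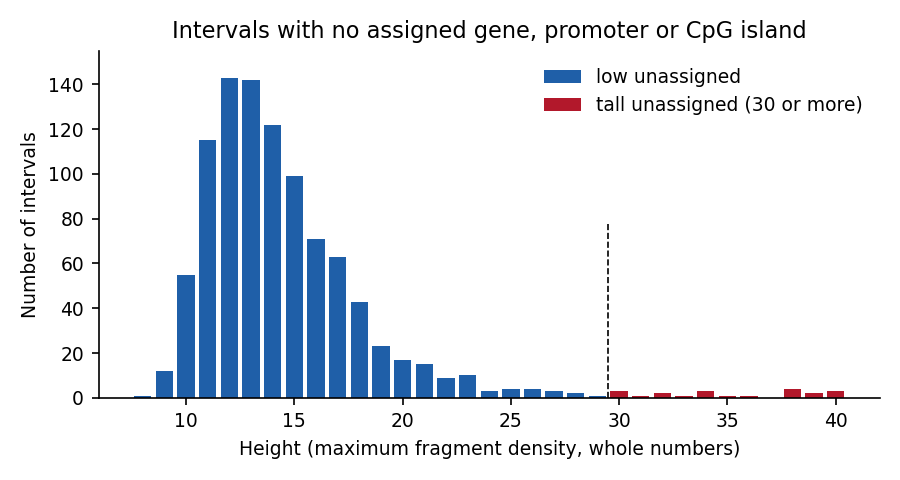
Number of intervals (vertical axis) at each height, the authors' maximum fragment density (horizontal axis), among intervals with no assigned gene, promoter or CpG island. Blue bars are the 957 members and red bars intervals of height 30 or more, the dashed line marks the limit, and the axis stops at 40, so taller intervals, which reached 193, are not drawn. The bars are highest at 12 and 13 and few intervals lie close to the limit on either side.

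Few intervals lay close to the height limit. Inside it, a height of 27 to 29 was reached by 6 members, nearest to PRUNE2 (29), PRSS16 and NFIB (28 each), and TSPAN2, SLC25A4 and NCOA3 (27 each). Just outside it, a height of 30 was found at 3 intervals nearest to PRSS16, PLEKHG6 and OR1F1, and 31 at 1 interval nearest to DCP2. Scores inside the limit ran from 136 to 263 for these 6 members, and those of the 4 intervals just outside from 234 to 377.

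AP-1 words stood at the summits of the members. Of 957 members, 327 (34.2%, 31.2 to 37.3) held TGANTCA, on either strand, within 100 bp of the summit. In windows of the same length placed 1000 bp to each side of the same summits, 151 of 1914 (7.89%, 6.72 to 9.19) held it, so the share at the summit was 4.33 times that of the flanks. All 14178079 windows of 200 bp in the genome held it in 6.27%, and those lying over 10 kb from protein-coding genes in 6.57%. Weighted to the GC content of the members, the genome's share was 6.21%. The word is its own reverse complement apart from the middle base, so each match was counted once.

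The AP-1 share was close to that of low intervals assigned to genes, and far from those of the other classes. Among the 1215 low gene-assigned intervals, 373 (30.7%, 28.1 to 33.4) held the word, against 7.2% of their flanks, and this range overlapped that of the members. Among the 1842 intervals with a promoter or CpG island 135 (7.33%, 6.18 to 8.62) held it. Among the 105 tall unassigned intervals 4 (3.81%, 1.05 to 9.47) did, and among the 50 tall gene-assigned intervals 2 (4%) did. By height, which is part of the rule, these 105 held the word in 4 of 41 (9.76%, 2.72 to 23.1) at 30 to 49 and in 0 of 64 (0 to 5.6; 3 counts would be 4.69%) at 50 or more. On chromosome 6 alone lay 69 of the 105. The B box word with 2 free letters, chosen after the data were seen, was in 49.5% of the 105. The part of either in the low AP-1 share was not tested. None of these differences has a replicate behind it.

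Within 1000 bp of the summit the word was most frequent at the centre. In the 50 bp to the right of the summit 11.6% of members held it and in the 50 bp to the left 10.8%. In the neighbouring 50 bp bin on each side the share was 9.51%. The share fell away from there and was between 1.36% and 2.4% in the bins beyond 800 bp. Counted by the middle of the word, 728 members (76.1%, 73.2 to 78.7) had at least 1 within 500 bp of the summit. The same wide window held a word in 70.8% of the low gene-assigned intervals, 32.4% of the tall unassigned ones and 25.6% of those with a promoter or CpG island. The deposited summits are coarse, since 861 of 957 (90%) lay on multiples of 16 bp, which limits how sharply a word can be placed.

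**Figure D2:**
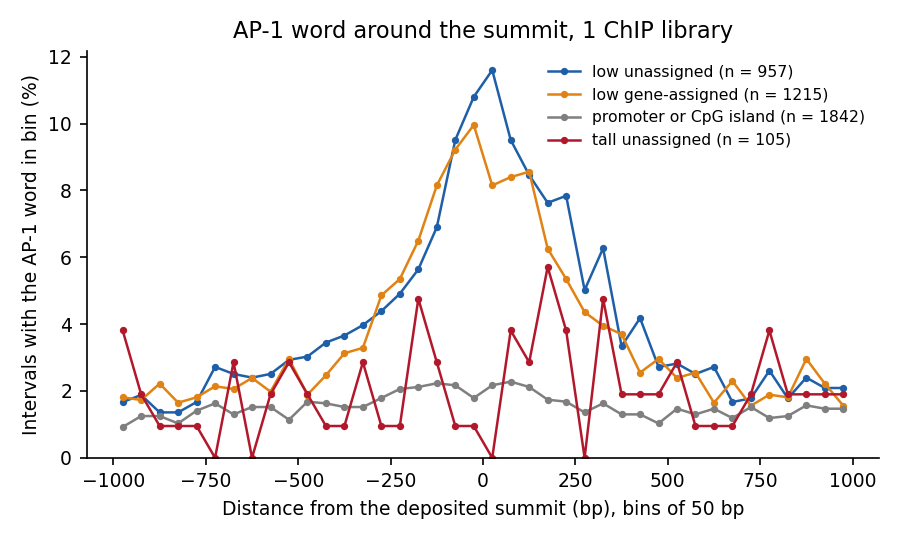
Share of intervals (vertical axis, %) with an AP-1 word in each bin of 50 bp, by distance from the deposited summit in bp (horizontal axis), for low unassigned, low gene-assigned, promoter or CpG island, and tall unassigned intervals. Both low classes peak near the summit, the members at 11.6%, while the promoter class runs between 0.923% and 2.28% and the small tall unassigned class shows no peak at the summit.

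The bases of the word itself differed from those in the flanks. Dimers of FOS and JUN are known to prefer C or G in the middle and a purine, A or G, before TGA. Among the 403 words at member summits, 70.7% (66 to 75.1) had C or G in the middle, against 55.6% (47.6 to 63.4) of the 162 words in the flanks. Before TGA, read on each strand in turn, 60.8% (57.3 to 64.2) of 806 word ends had A or G, against 47.5% (42 to 53.1) of 324 in the flanks. Counted by member, the form with C or G in the middle was held by 247 (25.8%) against 4.28% of flanks, a ratio of 6.02. The form with A or T in the middle was held by 111 (11.6%) against 3.71% of flanks, a ratio of 3.13. The split by middle base was chosen after these sequences were seen.

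Most members with the word had it once. A single word was found in 259 members, 2 words in 60 and 3 words in 8, while 630 (65.8%) had none. The 8 members with 3 words were nearest to SEMA6D, RBBP6, KLF6, TENT5C, FOXL1, DCBLD2, SCAF4 and LRFN5. Members with and without the word were alike in the authors' signals. The median height was 14 with the word and 13 without it, the median score 95 against 90.4, and the median length 1208 bp against 1222 bp. Their distances to a gene start had medians of 67950 and 65993 bp, and their GC content 44% and 45.5%.

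The AP-1 share was higher at each step of height up to 16 to 19, and varied little with most other properties. By height it was 27.9% (21.5 to 35) at heights of 8 to 11, 31.6% at 12 to 13 and 36.7% at 14 to 15. It was 41.5% (34.6 to 48.7) at 16 to 19 and 32.4% (21.5 to 44.8) at 20 to 29. Neighbouring ranges overlapped, and those of the lowest group and of 16 to 19 overlapped only narrowly. Over 4 groups by GC content it ran between 31.2% and 38.7%, and by distance to the nearest protein-coding start between 28.8% and 37.8%. It was 29.9% in members inside a protein-coding gene, 31% in those inside a long noncoding RNA (lncRNA) gene only and 36.6% in those in no gene. Having another interval within 100 kb made little difference, at 33.5% against 35.2%. The clearest split was by repeated sequence: of 45 members in which at least 50% of the 24-base words recur 10 or more times in the reference, 5 (11.1%, 3.71 to 24.1) held AP-1, against 35.3% (32.2 to 38.5) of the other 912.

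Several other words reached 1.5 times the share of the flanks in at least 20 members, with ratios between 1.57 and 2.08, below that of AP-1. Rarer words, given further on, had higher ratios from fewer members. CATTCC, the word of the TEAD factors that act with YAP in Hippo signalling, was in 149 members (15.6%, 13.3 to 18) against 9.93% (8.62 to 11.4) of flanks. TGTGGTT, bound by RUNX factors, was in 67 (7%, 5.47 to 8.81) against 4.44% (3.56 to 5.46). CAGCTG, an E-box form bound by basic helix-loop-helix factors, was in 120 (12.5%, 10.5 to 14.8) against 7.52% (6.38 to 8.8). Against genome windows of the members' GC content, these 3 ratios were 1.38, 1.89 and 1.42.

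The TEAD and RUNX words were about as frequent with AP-1 as without it. CATTCC was in 50 of the 327 members with an AP-1 word (15.3%) and in 99 of the 630 without one (15.7%). TGTGGTT was in 23 with AP-1 (7.03%) and in 44 without it (6.98%). The E-box words differed more: CAGCTG was in 15.9% of members with AP-1 and 10.8% (8.48 to 13.5) of those without. CAGATG, whose share in all members was 1.2 times that of the flanks, was in 23.2% and 13.5% (10.9 to 16.4). The tallest members with CATTCC within 50 bp of the summit were nearest to EVI5 (height 25), DKK1 (24), which encodes a secreted inhibitor of Wnt signalling, and GDAP2 (23). Those with TGTGGTT within 50 bp were nearest to C20orf85 (23), OR6S1 (22) and SCNN1G (19), which encodes a subunit of the epithelial sodium channel.

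Words that resemble the AP-1 word partly coincided with it. TGACNNNGC, the antioxidant response element of NRF2, was in 112 members (11.7%, 9.73 to 13.9) against 6.64% (5.56 to 7.84) of flanks. AP-1 was also present in 53 of these, and in 32 the words shared bases. TGCTGAC, bound by MAF proteins, was in 41 (4.28%, 3.09 to 5.77) against 2.4% (1.76 to 3.19), and 22 of these also held AP-1, with shared bases in 5. It was in 6.73% of members with AP-1 and 3.02% (1.83 to 4.67) of those without. The tallest members with TGACNNNGC within 50 bp of the summit were nearest to MYEOV and IL2RB (23 each) and GRB10 (19). The tallest with TGCTGAC within 50 bp were nearest to TBC1D3E (19), DRD3 and TUB (17 each).

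Words frequent in the promoter or CpG island class were rarer among the members. The rule left out promoters and CpG islands, so this contrast is a description only. CCGGAA, bound by ETS factors, was in 26 (2.72%, 1.78 to 3.96) against 1.31% of flanks, and in 16% of the promoter or CpG island class. CACGTG, the E-box of MYC, MAX and USF factors, was in 28 (2.93%, 1.95 to 4.2) against 1.83% (1.28 to 2.53) of flanks, with overlapping ranges, and in 11.1% of the promoter class. At the members' GC content the genome's share of CACGTG was 2.35%, and the ratio 1.24. The tallest members with CACGTG within 50 bp of the summit were nearest to LPIN3 (25), where it can be read in the sequence above, CSNK1D (22) and TACR1 (21). TATAAA was less frequent at the summits than beside them, at 10.3% (8.49 to 12.5) against 17.6% (15.9 to 19.3). Genome windows of the members' GC content held TATAAA in 13.6%. In the low gene-assigned class it was in 12.6%, against 17.3% of their flanks. The CTCF word, of the factor that anchors chromatin loops, was in 16 members (1.67%) against 0.522% of flanks. Of these 16, 14 had no AP-1, beside 65.8% of all members, and 16 are too few to set these shares apart. The NFI word was in 16 as well, against 0.47% of flanks.

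**Figure D3:**
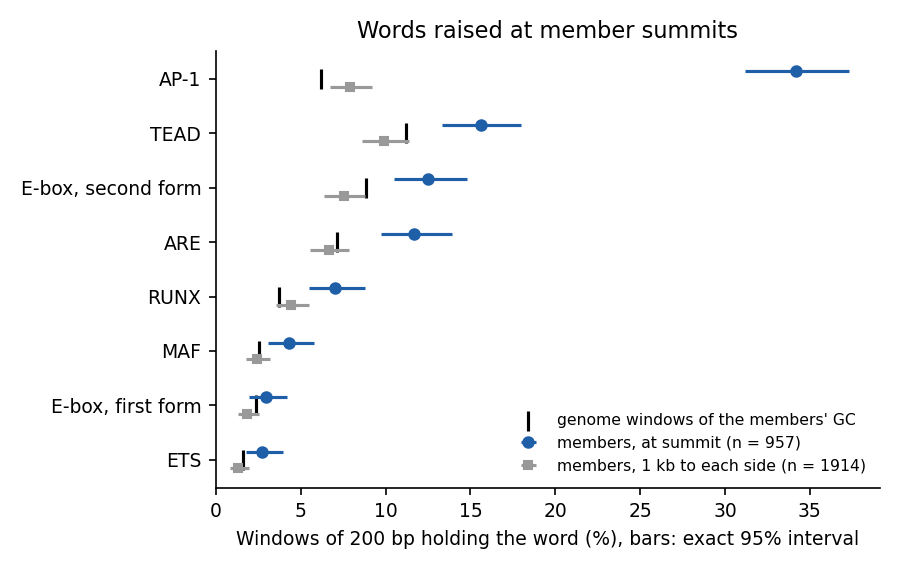
Share of 200 bp windows holding each word (horizontal axis, %) for the words at 1.5 times the flanks or more in at least 20 members (vertical axis), where the first form of the E-box is CACGTG and the second CAGCTG. Blue points are the 957 summits and grey squares the 1914 flanks, with exact 95% intervals, and black ticks are genome windows of the members' GC content. AP-1 stands at 34.2% and every other word is below 16%.

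Among all 6-base words, those inside the AP-1 word had the most members of the 10 with the highest ratios to the flanks. Of 1692 6-base words found in 20 or more members, 143 reached 1.5 times the flanks. GACTCA was in 302 members (31.6% against 9.25% of flanks, ratio 3.41) and GAGTCA in 307 (32.1% against 10.6%, ratio 3.04), and both are parts of the AP-1 word with C or G in the middle. The others of the top 10 held the dinucleotide CG and were in 20 to 42 members each, led by CACTCG at 3.62. The median GC content was 45% at the summits and 42% in the flanks, and the CG dinucleotide was absent from 17.7% of the summit windows.

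The B box, frequent in the tall unassigned intervals, was rare in the members. With 2 free letters the word was in 7 members (0.731%, 0.295 to 1.5), against 52 of the 105 tall unassigned intervals (49.5%, 39.6 to 59.5). In the low gene-assigned class it was in 0.165% and in genome windows in 0.0431%. The 7 members were nearest to NFIB and PRSS16 (28 each), OR6S1 (2 members, 23 and 22), SIAH1 (17), and PSMB2 and MMADHC (12 each), and none held AP-1. Of the 2 members of height 28 both held the B box. This looser word was chosen after the data were seen. The annotation used here holds no nuclear tRNA genes, so whether such a gene lies at these 7 summits was not tested.

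The word intergenic did not describe all members. In GENCODE, an annotation later than the deposited assignments, 367 members (38.3%, 35.3 to 41.5) had their summit inside a gene. The gene was a lncRNA gene for 262 (27.4%) and a protein-coding gene for 117 (12.2%), and 242 lay in a lncRNA gene and in no protein-coding one. No summit lay in an annotated small RNA gene (0%, 0 to 0.385), where 3 counts would be 0.313%. The remaining 590 (61.7%, 58.5 to 64.7) lay in no gene. Of the low gene-assigned intervals 89.8% were inside a gene. Where the deposited list assigned a gene to an interval upstream of it, the summit was at most 14563 bp from the gene's start.

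The absence of an assigned gene and of a promoter, which chose the members, also sets how far they lie from gene starts, so distances are a description. The median distance from summit to the nearest protein-coding transcript start was 67 kb, with quartiles of 29.7 and 161 kb, against a median of 22.6 kb for the low gene-assigned intervals. Within 10 kb of such a start lay 29 members (3.03%), while 356 (37.2%) lay over 100 kb, 52 over 500 kb and 10 over 1 Mb away. The 5 farthest were 2 members at 1576 and 1380 kb from EFNA5, which encodes an ephrin ligand of axon guidance, and single members at 1519 kb from ACVR2A, an activin receptor gene, 1317 kb from PCDH9, a protocadherin gene, and 1214 kb from TMEM132C. Their heights were 11, 12, 9, 11 and 13 in that order. Those near ACVR2A and TMEM132C held the AP-1 word.

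**Figure D4:**
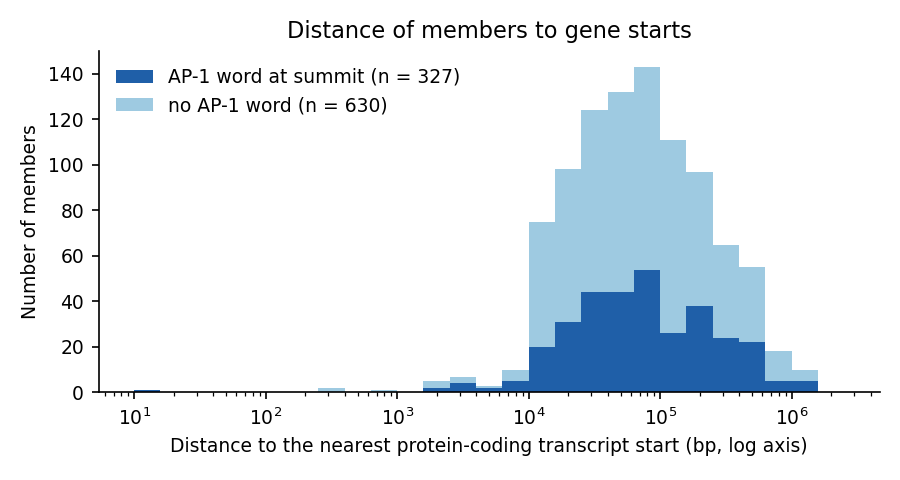
Number of members (vertical axis) by distance from summit to the nearest protein-coding transcript start (horizontal axis, bp, log axis), with the 327 members holding an AP-1 word in dark blue stacked under the 630 without one in light blue. Most members of both kinds lie between 10 kb and 1 Mb from a start.

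A few members did sit at starts. In all 4 were within 1 kb of a protein-coding start, and the later annotation places these starts where the deposited list had no gene. They were nearest to DNM3, a dynamin gene (13 bp, height 9, with 2 AP-1 words), FHAD1 (279 bp, height 13), OR1F1, an olfactory receptor gene (380 bp, height 23), and FYB1, which encodes an adaptor protein of T cells (961 bp, height 10). Counting every annotated transcript, lncRNAs included, 56 members (5.85%, 4.45 to 7.53) were within 1 kb of a start, and the median distance was 16.4 kb. Repeated sequence was less common at the members than beside them. At least 50% of 24-base words recurred 10 or more times in 45 summit windows (4.7%, 3.45 to 6.24) and in 195 of 1914 flanks (10.2%, 8.87 to 11.6). Reads were kept only if they aligned uniquely, per the series' design text, and the part of that filter in this difference was not tested.

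The 10 tallest members held AP-1 in 4 cases, close to the 34.2% of all members. They were nearest to PRUNE2 (height 29, score 263), PRSS16, a serine protease gene of the thymus (28, 186), NFIB, a nuclear factor I gene of glial development (28, 172), SLC25A4, the gene of a mitochondrial ADP/ATP carrier (27, 238), NCOA3, a nuclear receptor coactivator gene (27, 151), TSPAN2, a tetraspanin gene, at 2 members (27 and 26), PMEPA1, a gene induced by TGF-beta (26, 141), EPS15, an endocytic adaptor gene (26, 92.3), and UBR4, a ubiquitin ligase gene (26, 85.8). The word was at both TSPAN2 members and at those near EPS15 and UBR4. The PRUNE2 member lay from 79540615 to 79542203 on chromosome 9, 20.2 kb upstream of the start. The score did not follow the height closely here, since the second TSPAN2 member had a score of only 72.

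By nearest gene the members spread over 677 of 19447 protein-coding genes, and 506 of these were nearest to only 1 member. Nearness was computed from coordinates, and which gene a site acts on was not measured. The gene nearest to most members was AHR, the aryl hydrocarbon receptor, with 9 members of heights 17, 16, 12, 12, 15, 14, 10, 13 and 17 at 24 to 302 kb, of which 1 held AP-1. BCAS1, a gene of oligodendrocytes, had 8 members with heights from 13 to 21 at 79.9 to 190 kb, of which 5 held AP-1. SPRY2, an inhibitor of receptor tyrosine kinase signalling, had 7 with heights from 14 to 21 at 104 to 403 kb, of which 2 held AP-1. TMEM132C also had 7, of which 4 held AP-1, at 458 to 1214 kb, and POT1, a telomere protein gene, had 7, of which 2 held AP-1.

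Gene lists chosen with earlier results of these data known gave these counts, beside 3.48% of all protein-coding genes being nearest to a member. Of 38 mesenchymal, matrix and adhesion genes, 10 (26.3%) were nearest to a member. The tallest of these members were at CAV2, a caveolin gene (height 18, 65 kb), COL6A1, a collagen VI gene (17, 48.3 kb), and CD44, the hyaluronan receptor gene (15, 60.6 kb). Of 31 genes in a list headed glial and neural progenitor factors, 5 (16.1%) were nearest to a member. By height they were NFIB (28), CEBPB (20), RUNX1 (16, the tallest of 3 members), OLIG2 (13) and SOX9 (11, the tallest of 3 members). Of 21 TGF-beta and Hippo genes 3 were nearest to a member (14.3%), namely AMOTL2 (15), TGFBR2 (13) and TEAD1 (12). Genes with wide empty surroundings can be nearest to more sites, and gene spacing was not taken into account.

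Of 32 genes of nitric oxide and cyclic GMP signalling 1 (3.12%) was nearest to a member, close to the 3.48% of all genes, namely NPR3, a natriuretic peptide receptor gene, 338 kb from a member of height 14. Of 28 glioma driver genes 2 were (7.14%), CDK6 at 1 member of height 9 and MYC at 4 members, the tallest of height 15 at 577 kb. Of the 14 AP-1 family genes 1 was (7.14%), JUN, with a member of height 12 at 28.8 kb that held no AP-1 word.

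Among lncRNA genes, 39 held 2 or more member summits. POT1-AS1, a gene of 553094 bp, held 6, with heights of 14, 17, 13, 16, 17 and 14. LINC02889 and the unnamed ENSG00000284196 and ENSG00000253557 held 4 each, with heights from 10 to 21. LINC01673 is short in comparison, at 36412 bp, and held 3, with heights of 12, 13 and 11. OSMR-DT held 2 of height 19, PVT1 2 of heights 13 and 12, and GDNF-AS1 2 of heights 13 and 14. Longer genes hold more sites, and length was not taken into account. Nor was the count of 39 set against the number of annotated lncRNA genes.

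Members often lay close to another interval. A neighbour of any class was within 100 kb of 556 members (58.1%, 54.9 to 61.2) and within 10 kb of 133 (13.9%, 11.8 to 16.3). The low gene-assigned intervals had almost the same shares, 58.5% and 13.7%, while the tall unassigned ones had 86.7% and 64.8%. Linking members no more than 50 kb apart gave 652 members alone, 90 pairs, 25 groups of 3 and 11 runs of 4 to 6 members. The 11 runs held 50 members, of which 18 (36%, 22.9 to 50.8) had the AP-1 word, a share close to that of all members.

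AP-1 counts by run are a description, since runs of 4 to 6 members are too small to set their shares against each other. On chromosome 20, the run of 6 nearest to CEBPB, a C/EBP factor gene, and PTPN1, a tyrosine phosphatase gene, from 48965251 to 49101847 had heights of 20, 18, 15, 16, 18 and 17 and no AP-1 word at any summit. The run of 5 near NFATC2, an NFAT factor gene, from 49951430 to 49983887 had heights of 17, 15, 17, 18 and 20 and also none. The run of 6 near BCAS1, from 52498925 to 52535255, had heights of 17, 15, 19, 17, 19 and 13, and 3 held the word. Near TSPAN2 on chromosome 1, from 115676914 to 115728516, 3 of 4 members held it, with heights of 17, 15, 27 and 26. Near VAV3, from 108532887 to 108597336 on the same chromosome, 3 of 4 did as well.

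The other runs had heights between 10 and 26. The run between EPS15 and OSBPL9 had heights of 26, 13, 16 and 20, and 2 of its 4 members held AP-1. The run near DKK3 and MICAL2 on chromosome 11, from 12063054 to 12109503, had 5 members of heights 18, 10, 18, 11 and 16, of which 3 held it. The densest run lay near LIF, a cytokine gene, with 4 summits within 15.9 kb on chromosome 22 (30591098 to 30609221) and heights of 16, 13, 12 and 16, of which 1 held AP-1. The runs near GPR37, near AKR1B1 and AKR1B10, and near HMGA2, a chromatin architectural factor gene, had 4 members each, of which 1 each held it.

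The members were spread unevenly over the chromosomes. Over all chromosomes there were 0.337 members per Mb of sequenced bases. Chromosome 20 had 64 members, or 1.08 per Mb (0.828 to 1.37), chromosome 7 had 99, or 0.637 (0.518 to 0.776), and chromosome 14 had 49, or 0.555. Chromosome 4 had 5, or 0.0266 per Mb (0.00865 to 0.0622), and X had 6, or 0.0397. Divided by the Mb lying over 10 kb from protein-coding genes, the count of all members gave 2.54 (1.96 to 3.24) on chromosome 20. The same ratio was 0.721 over all chromosomes and 0.0478 on chromosome 4. Members inside or nearer to such genes were counted too, so these are not densities within that sequence. The copy number of each chromosome in these cells cannot be told apart from recovery by the antibody here, since no input values were used.

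Chromosome 20 differed from chromosome 7 in how the classes compared. On chromosome 20 the members outnumbered the low gene-assigned intervals, with 64 against 44, while on chromosome 7 there were 99 against 131 and over all chromosomes 957 against 1215. Members were also the more numerous class on chromosomes 5 (84 against 74), 8 (59 against 48), 13 (32 against 27) and 22 (14 against 13). The 45 to 60 Mb stretch of chromosome 20 held 55 of its 64 members, among 94 intervals of all classes, in 3 bins of 5 Mb with 22, 19 and 14. No other bin had more than 14. The heights in this stretch ran from 11 to 27 with a median of 17, above the 14 of all members, and 17 of the 55 (30.9%, 19.1 to 44.8) held AP-1. The bins that followed were chromosome 11 from 10 to 15 Mb with 14 members and chromosome 7 from 15 to 20 Mb, at AHR, with 12. By chromosome, the AP-1 share of those with over 50 members ran from 30.3% on chromosome 7 to 47.5% (34.3 to 60.9) on chromosome 8.

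**Figure D5:**
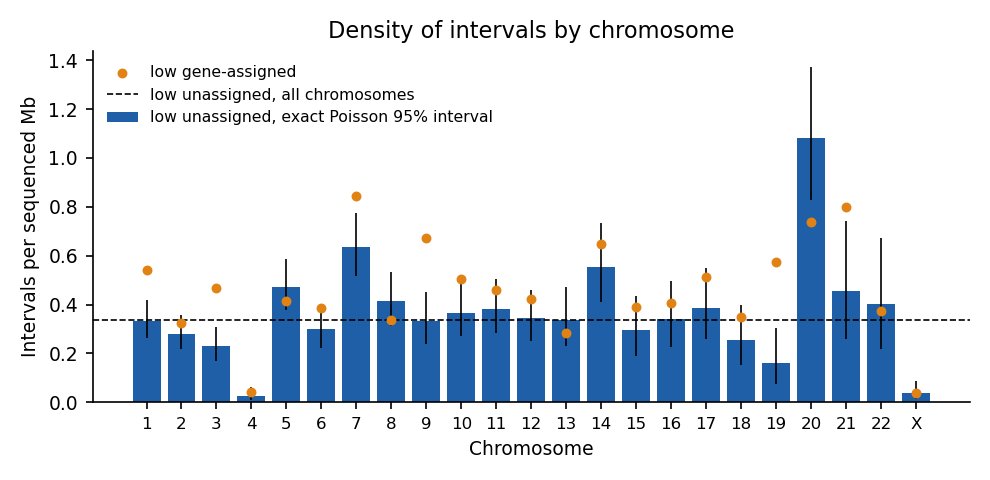
Intervals per Mb of sequenced bases (vertical axis) on each chromosome (horizontal axis), for the 957 members as blue bars with exact Poisson 95% intervals and for the low gene-assigned intervals as orange points. The dashed line is the density of members over all chromosomes, 0.337 per Mb, and chromosome 20 stands above it at 1.08 while chromosomes 4 and X lie near 0.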

How the data were processed

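Per the series' design text, 75 nt reads were aligned to hg19, kept if unique with at most 2 mismatches, and intervals called with MACS. The submitters' processing notes name BWA and MACS. No source used here gives their versions or says whether the input library served as control. Per the file headers, the deposited height and mean density are fragment-density signal values, and the deposited score is the authors' MACS score; all describe the 1 ChIP library.

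Members were taken by gene, promoter and CpG island counts of 0 and a height under 30. Words were searched on both strands in 200 bp at the summit, in flanks 1000 bp away and in all 200 bp windows of GRCh37 without unsequenced bases, leaving out the Y chromosome. Genes came from GENCODE 44, and the nearest gene from protein-coding transcripts of genes with a symbol. Sequences were read from the GRCh37 reference. The reference carried no repeat marks, so the planned repeat result was replaced by 24-base words with 10 or more copies. Word searches and the counting of copies of 24-base words were tested on simulated sequence. Python used numpy 2.4.6, pandas 2.3.3, scipy 1.17.1 and matplotlib 3.10.9.

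The members, words, gene lists and naming rule were chosen with earlier results of these data known. Named regions were the 10 tallest, the 3 tallest for each word at 1.5 times the flanks in 20 or more members, runs of 4 or more, the 5 farthest, and list genes by height. Members named for 3 AP-1 words, B boxes or nearness to a start were chosen after their values were seen. No p-value was computed.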

Additional observations from a re-analysis of the deposited data

How the results depend on the processing

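Of 56 alternatives over 8 results, 43 left the value within its counting error (counts of members, within 1.5 times) and 13 moved it, 2 of the 56 being chosen after the data were seen. Counting AP-1 within 50 bp of the summit gave 20.1% of members and within 200 bp 52.8%, against 34.2%, and CACGTG gave 1.46% and 6.17%, against 2.93%; wider windows hold more words by construction. Only TGACTCA or TGAGTCA, an alternative added later, gave 25.8%. The upper part of the members by score, 479 of 957, gave an AP-1 share of 37.4%, a neighbour within 100 kb for 63.3% against 58.1%, and a density on chromosome 20 of 0.571 per Mb against 1.08, over fewer members by construction. A neighbour was within 10 kb for 13.9% and within 500 kb for 87.1%. All annotated transcript starts gave a median distance of 16.4 kb against 67 kb, and whole intervals a median GC content of 43.3% against 45%. Height limits of 20 and 40, autosomes alone, merging within 10000 bp, interval midpoints and, added later, leaving out the 11 runs, with AP-1 at 34.1%, stayed within counting error for the results they were run on. No paired analysis was possible because the study has 1 ChIP library. With no replicate, no input values and no read total, heights have no error, and copy number and open chromatin were not separated from recovery by the antibody. The planned repeat result was not run.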
